A study of Sus scrofa with 30 samples.

Results

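In pig neonatal islet cell clusters (NICCs), a rule chose 95 of the 25880 genes of the count table. In NICCs matured with fetuin-A they lay lower than in NICCs matured with albumin and lower than at the start of maturation. With the TGF-beta receptor inhibitor SB431542, their group means stayed within a set limit of the albumin mean. The genes were chosen by their own values, in CPM, the count of a gene over the total of its library, times 1000000. The highest of the 6 group means had to reach at least 1 CPM. The log2 ratio of the Fet-A/d5 mean to the HSA/d5 mean and that to the HSA/d1 mean both had to be -1 or lower, with 0.5 CPM added to each mean. All 4 Fet-A/d5 libraries had to lie below all 4 HSA/d5 and all 4 HSA/d1 libraries, and the log2 ratio of HSA + SB/d5 to HSA/d5 had to stay within 0.585 on either side of 0. Of the 13860 genes with a sufficient level, 847 met the ratio to HSA/d5, 278 of these also the ratio to HSA/d1, 150 of these lay below all HSA/d5 libraries, 126 also below all HSA/d1 libraries, and 95 also met the limit on SB431542. Another 31 genes failed on that limit alone, 18 of them lower and 13 higher with SB431542.

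NICCs are clusters of islet cells from the pancreas of newborn piglets, matured in culture. RNA was sequenced in 4 libraries of each of 6 groups: HSA/d1 (human serum albumin, maturation d1, culture day 6) and, at maturation d5 (culture day 10), HSA/d5, Fet-A/d5, HSA + SB/d5, HSA + LDN/d5 and HSA + SB + LDN/d5. Fetuin-A, a plasma glycoprotein made by the liver, replaced albumin in the Fet-A group, whereas SB431542, an inhibitor of the kinase of the TGF-beta type I receptor, and LDN, which the labels do not identify further, were added to albumin. The study asked how fetuin-A acts on the maturation of beta cells, and it examined proliferation genes in the same libraries, so their direction here is not independent evidence. No group carried a genetic change, all groups were kept in culture without fetal serum, and the series came from 4 independent islet preparations. The animals of the study were German Landrace and Landrace-Yorkshire piglets of more than one age within the first weeks of life. The labels tie no library to a preparation or to a piglet age, so libraries were compared as unpaired. Total counts were 18883734 to 24346119 per library. INS and GCG, which mark beta and alpha cells, had group means between 747 and 3179 CPM and between 3564 and 20125 CPM.

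A dividing cell first copies its DNA, for which the origin recognition complex and the MCM helicase are loaded, and then separates the copies. CDK1 with its B-type cyclins drives entry into mitosis, FOXM1 is a transcription factor of the genes of this phase, and kinetochore proteins, kinesins and the checkpoint kinases attach and sort the chromosomes. Islet cells divide more in newborn than in adult life. In addition, beta cells take up glucose through transporters such as GLUT2, and genes such as TXNIP respond to glucose and its metabolites.

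Of the 95 genes, 83 had a gene symbol and 12 did not. By their known roles, 41 act in cell division and 13 in DNA replication and repair, so that 54 of the 83 named genes belong to the cell cycle. A further 4 respond to nutrients or stress (TXNIP, ARRDC4, PDK4 and KLF10), 6 encode receptors and transporters, 3 encode secreted or matrix proteins and 16 have other roles. The roles were assigned after the genes were known and are a description. Genes named below as examples of a role that the rule for naming genes did not select, such as KIF22, DTL, BRIP1, CRYBA2, GADD45G, GFPT2 and TENT5C, were picked after their values were seen.

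**Figure D1:**
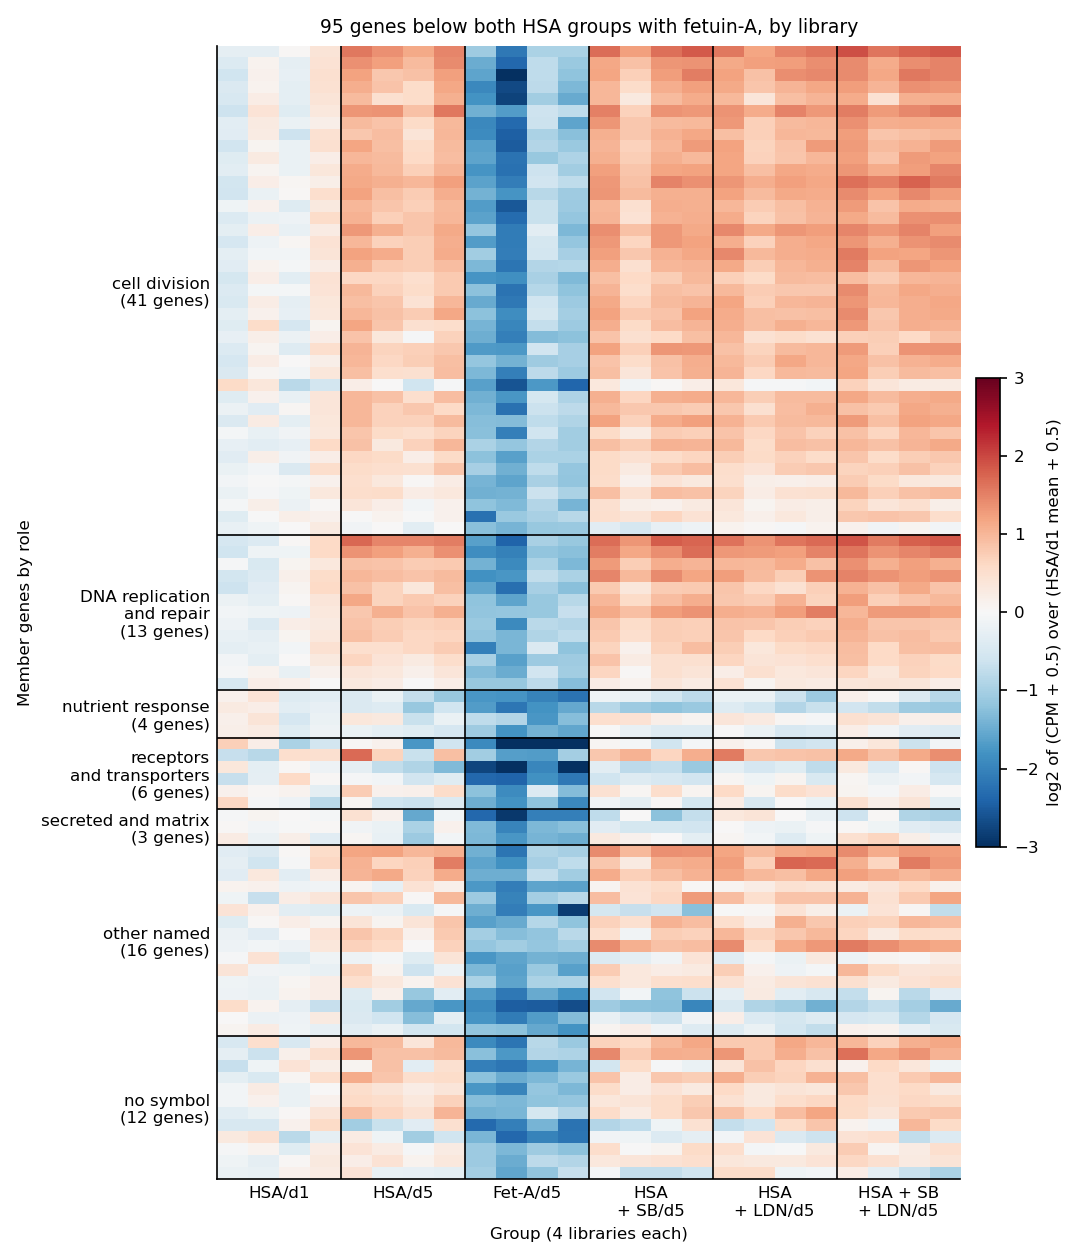
Each row is one of the 95 genes, grouped by role, and each column one of 24 libraries; the colour is the log2 of CPM + 0.5 over the HSA/d1 mean + 0.5, blue for lower and red for higher. The Fet-A/d5 columns are blue in all 95 rows, which the rule required, and the columns of the other d5 groups are mostly red for the 41 cell division and the 13 replication genes.

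The median log2 ratio of the 95 genes was -1.91 against HSA/d5 (from -2.99 to -1.02) and -1.25 against HSA/d1 (from -3.08 to -1.002), so that the median gene stood at 22.3% of its HSA/d5 mean and at 36.6% of its HSA/d1 mean. The median ratio of SB431542 to HSA/d5 was 0.09 (from -0.54 to 0.56). These values chose the genes and are given without a test. Inside the limit, single genes still differed with SB431542. MEST had 102 to 169 CPM in HSA + SB/d5, below all HSA/d5 libraries (176 to 238 CPM), and all XPNPEP2 libraries lay above. In PKNOX2 and ENSSSCG00000033321, libraries of Fet-A/d5 and HSA + SB/d5 overlapped. These examples were picked after their values were seen. In edgeR's quasi-likelihood test, all 95 passed an absolute log2 fold change above 1 with an adjusted p below 0.05 (here termed called) as lower in Fet-A/d5 than in HSA/d5, where 6.29% of the 14842 genes tested were called lower. All 95 were also called lower than in HSA/d1, against 5.01% of all genes; both counts follow from the rule. Just inside the limits were CSAD (-1.02 against HSA/d5), ENSSSCG00000032946 (-1.002 against HSA/d1), XPNPEP2 (0.56 with SB431542) and PIF1, the gene of lowest level (2.14 CPM in its highest group). Just outside were CENPH (-0.99), ENSSSCG00000008677 (-0.99) and ENSSSCG00000025500 (-0.59) for the same 3 ratios. Without Fet-A/d5 replicate 3, the rule held for 151 genes, 91 of them among the 95.

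Among the cell division genes, CDK1, the kinase that starts mitosis, had 8.81, 13.0, 9.74 and 16.2 CPM in the HSA/d1 libraries and 31.4, 28.5, 23.7 and 32.7 CPM in HSA/d5. In the Fet-A/d5 libraries it had 3.94, 1.93, 6.86 and 5.21 CPM. The highest library with fetuin-A thus lay below the lowest library at the start, and the group mean was 15.4% of that in HSA/d5 and 37.6% of that in HSA/d1. CCNB1, the cyclin that activates CDK1, had 11.1, 16.2, 12.3 and 21.04 CPM in HSA/d1 and 33.1, 28.1, 22.5 and 34.5 CPM in HSA/d5. With fetuin-A it had 3.64, 1.89, 8.61 and 5.67 CPM. FOXM1 had 4.17 to 6.69 CPM in HSA/d1, 9.29 to 12.3 CPM in HSA/d5, and 1.97, 1.08, 3.50 and 2.33 CPM with fetuin-A. All 3 genes had their lowest Fet-A value in replicate 2 and their highest in replicate 3.

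The other cell division genes cover the later steps of mitosis. They include the mitotic kinases PLK1, BUB1, BUB1B and TTK, the kinetochore proteins NUF2, SPC24, SKA1, CENPE and KNTC1, and the kinesins KIF2C, KIF4A, KIF11, KIF15, KIF20A and KIF22. Also present were the chromosomal passenger proteins BIRC5 and CDCA8, ESPL1 (separase, which cuts the link between sister chromatids), UBE2C (a ubiquitin-conjugating enzyme of the anaphase-promoting complex) and HJURP, the chaperone that loads the centromeric histone. Their Fet-A/d5 means ran from 11.7% of the HSA/d5 mean for HJURP to 45.3% for CIP2A, an inhibitor of the phosphatase PP2A. UBE2C had 19.5, 14.5, 15.3 and 19.6 CPM in HSA/d5 but 2.37, 0.495, 4.56 and 3.24 CPM with fetuin-A. KIF2C, a kinesin that shortens microtubules, had the lowest ratio to the start among the 41, with 29.1, 24.6, 10.8 and 13.1 CPM in HSA/d1 and 5.96, 2.79, 5.51 and 3.34 CPM with fetuin-A, a mean of 22.7% of the HSA/d1 mean. BUB1, a kinase of the spindle checkpoint, had 8.12 to 13.4 CPM in HSA/d1, 18.003 to 22.2 CPM in HSA/d5 and 3.07, 1.44, 6.66 and 4.86 CPM with fetuin-A. PBK, a mitotic kinase, had 6.60 to 10.8 CPM in HSA/d1, 18.4 to 25.2 CPM in HSA/d5 and 3.59, 1.44, 3.95 and 3.95 CPM with fetuin-A. BIRC5 (survivin), in contrast, had 9.18 to 11.8 CPM in HSA/d1 and 9.88 to 13.5 CPM in HSA/d5, which overlap, and 3.64 to 5.41 CPM with fetuin-A. Summed over the 41 genes, the level was 332 to 506 CPM in HSA/d1, 581 to 766 CPM in HSA/d5 and 94.2 to 222 CPM in Fet-A/d5.

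**Figure D2:**
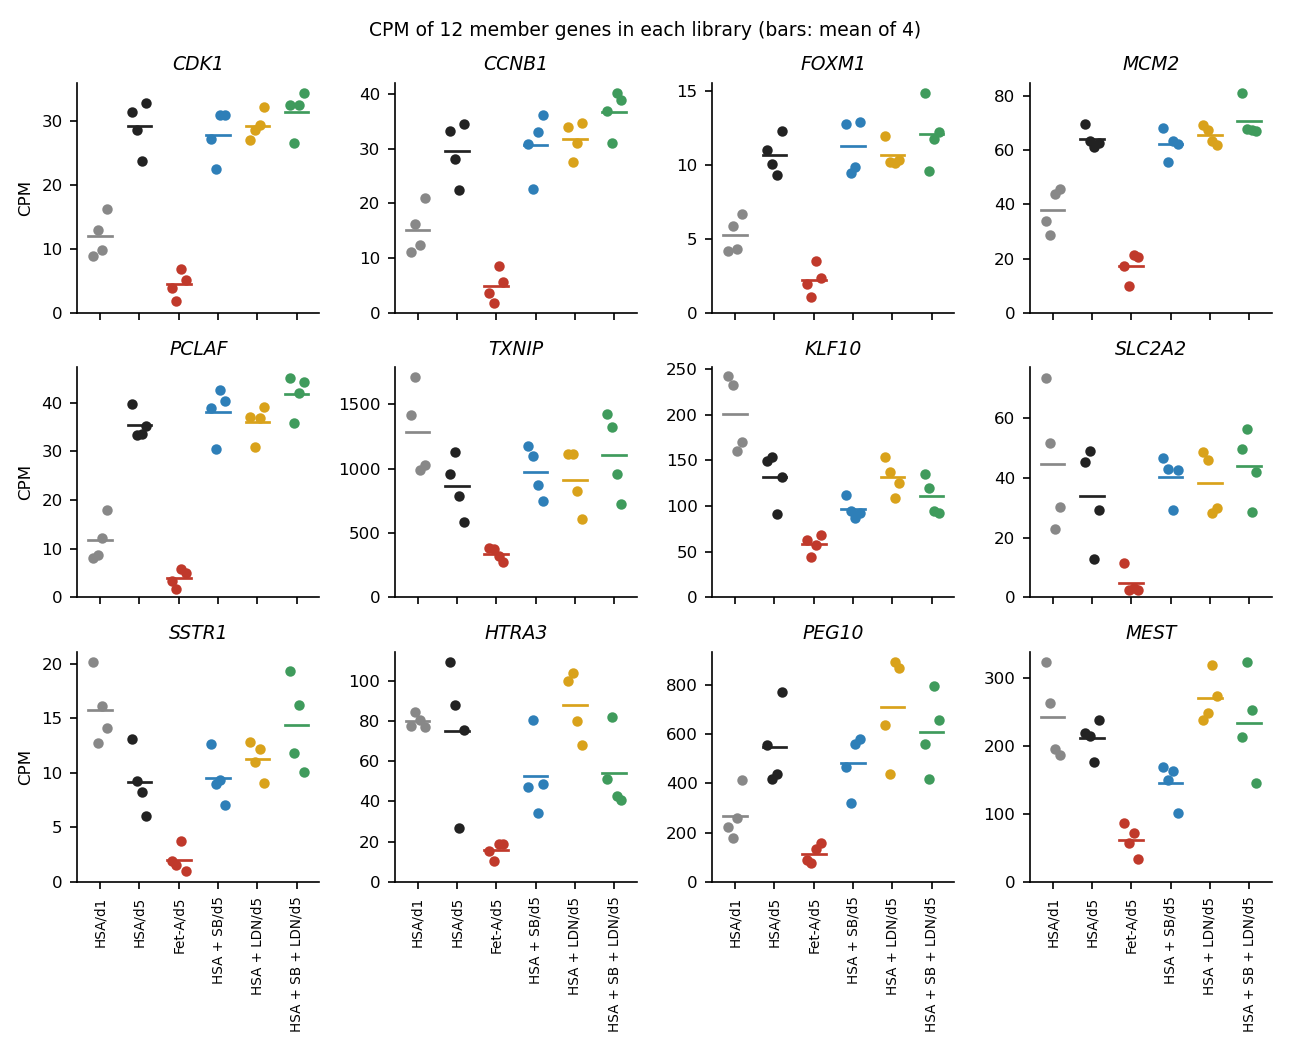
CPM (linear axis from 0) of 12 of the 95 genes in each library of the 6 groups, with points for libraries and bars for the mean of 4. CDK1, CCNB1, FOXM1, MCM2, PCLAF and PEG10 have their HSA/d1 points between those of Fet-A/d5 and HSA/d5, whereas TXNIP, KLF10, SLC2A2 and SSTR1 have their highest HSA/d1 point above every HSA/d5 point.

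Of the replication genes, MCM2, a subunit of the replicative helicase, had 33.9, 28.6, 43.8 and 45.6 CPM in HSA/d1, 69.6, 63.2, 61.1 and 62.4 CPM in HSA/d5 and 17.3, 9.81, 21.3 and 20.4 CPM with fetuin-A. With 0.5 CPM added to each mean, PCLAF, a partner of the replication clamp PCNA, had the lowest ratio to HSA/d5 of all 95 genes, -2.99. Its values were 8.12, 8.80, 12.1 and 18.004 CPM in HSA/d1, 39.7, 33.4, 33.4 and 35.2 CPM in HSA/d5 and 3.46, 1.80, 5.76 and 5.06 CPM with fetuin-A. ORC1, the large subunit of the origin recognition complex, had 3.94 to 9.92 CPM in HSA/d1, 8.17 to 12.4 CPM in HSA/d5, and 0.945 to 2.95 CPM with fetuin-A. MCM3, GINS1 (of the helicase's GINS partner), ASF1B (a histone chaperone), DTL, BRIP1 and the helicase PIF1 were also among these 13 genes. ASF1B had 3.67 to 8.95 CPM in HSA/d1, 12.7 to 15.7 CPM in HSA/d5 and 1.03 to 2.25 CPM with fetuin-A, or 11.4% of the HSA/d5 mean. BRIP1, a helicase that works with BRCA1, overlapped between HSA/d1 (4.27 to 7.18 CPM) and HSA/d5 (6.20 to 7.60 CPM) and had 2.23 to 3.35 CPM with fetuin-A. The summed level of the 13 was 105 to 168 CPM in HSA/d1, 211 to 254 CPM in HSA/d5 and 34.9 to 66.0 CPM in Fet-A/d5.

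Whole lists of cell cycle genes, chosen with earlier results of these data known, show how far the drop below the start reached. Of 65 genes of mitosis and the kinetochore in the table, 54 had a log2 ratio of -1 or lower against HSA/d5 and 34 against HSA/d1, with medians of -1.89 and -1.03. By the edgeR test 54 of 65 were called lower than HSA/d5 and 38 lower than HSA/d1, where 6.29% and 5.01% of all genes tested were. Of 52 genes of DNA replication and S phase, 29 had such a ratio against HSA/d5 but 7 against HSA/d1, with medians of -1.12 and -0.66. Of the 51 of these that were tested, 28 were called lower than HSA/d5 and 12 lower than HSA/d1, beside the same shares of all genes. The 95 genes include 30 of the mitosis list and 5 of the replication list. Among the 35 genes of the mitosis list that stayed outside, 31 failed the ratio to HSA/d1, 25 had a Fet-A/d5 library above an HSA/d1 library, and 0 failed the limit on SB431542. TOP2A, the topoisomerase that untangles sister chromatids, met both ratios (-2.42 and -1.30) and failed only because its libraries overlapped with HSA/d1, and MCM4 fell short against HSA/d1 (-1.29 and -0.78). TOP2A and MCM4 were picked after their values were seen.

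**Figure D3:**
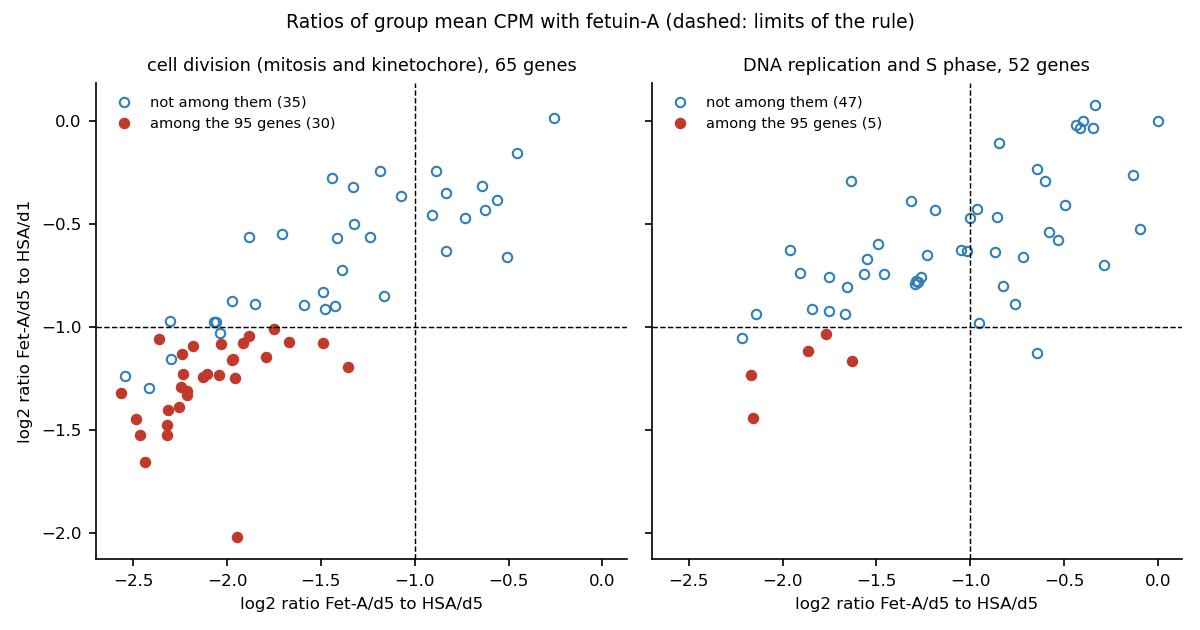
Log2 ratio of the Fet-A/d5 mean CPM to HSA/d5 (x axis) and to HSA/d1 (y axis), 0.5 CPM added to each mean, for the 65 genes of mitosis and kinetochore (left) and the 52 genes of DNA replication and S phase (right). Filled points are among the 95 genes (30 and 5) and dashed lines mark the limit of -1; most replication genes lie above the horizontal line.

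The 16 genes of other roles include some that are also tied to proliferation. TCF19, a chromatin-binding factor of proliferating cells and islets, had 4.35 to 9.10 CPM in HSA/d1, 12.8 to 14.8 CPM in HSA/d5 and 0.945 to 3.003 CPM with fetuin-A. IQGAP3, a scaffold protein, had a Fet-A/d5 mean of 21.2% of the HSA/d5 mean. PEG10, an imprinted gene derived from a retrotransposon, had 221, 177, 260 and 412 CPM in HSA/d1, 555, 417, 440 and 771 CPM in HSA/d5 and 89.1, 75.9, 134 and 159 CPM with fetuin-A. MEST, another gene expressed from the paternal allele, had 324, 263, 195 and 187 CPM in HSA/d1, 220, 215, 176 and 238 CPM in HSA/d5 and 87.3, 57.2, 71.7 and 33.4 CPM with fetuin-A. All HSA/d5 libraries of PEG10 thus lay above all HSA/d1 libraries, whereas the HSA/d1 and HSA/d5 libraries of MEST overlapped. HMGN2, which binds nucleosomes, had 280 to 367 CPM in HSA/d1, 344 to 449 CPM in HSA/d5 and 106 to 167 CPM with fetuin-A. HMGN2 has many processed copies in mammalian genomes, and the handling of reads with several matches is not given in the sources used here, so its level is uncertain. ERO1B, an oxidase that helps to form disulfide bonds in the endoplasmic reticulum of secretory cells, had 36.5 to 89.8 CPM in HSA/d5 and 17.8 to 25.8 CPM with fetuin-A. Of the others, CRYBA2, a crystallin gene, had 10.4 to 12.7 CPM in HSA/d1, 9.62 to 15.9 CPM in HSA/d5 and 2.38 to 3.55 CPM with fetuin-A. GADD45G, a stress-response gene that restrains growth, had 6.96 to 12.4 CPM, 6.96 to 11.99 CPM and 2.37 to 3.10 CPM in the same groups. GFPT2, an entry enzyme of the hexosamine pathway, stood at 31.6% of HSA/d5 and 24.3% of HSA/d1, and TENT5C, a poly(A) polymerase, at 29.95% and 40.9%. XPNPEP2, a membrane aminopeptidase, had counts of 11, 13, 11 and 19 in HSA/d1, 29, 25, 14 and 25 in HSA/d5 and 0, 1, 0 and 1 with fetuin-A. Relative to the total counts of their libraries, the Fet-A/d5 total was 2.14% of the HSA/d5 total, with an exact 95% interval from 0.255% to 7.94% that covers counting error only.

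The 4 genes of nutrient and stress response together had 1375 to 2330 CPM in HSA/d1, 960 to 1591 CPM in HSA/d5 and 461 to 609 CPM in Fet-A/d5. CPM is a share of reads and not corrected for gene length, so levels of different genes are not compared further. TXNIP, the thioredoxin-interacting protein, which restrains glucose uptake, had 1415, 1713, 987 and 1028 CPM in HSA/d1 and 956, 1126, 789 and 587 CPM in HSA/d5. With fetuin-A it had 383, 375, 318 and 278 CPM, a mean of 39.1% of HSA/d5 and 26.3% of HSA/d1. KLF10, a zinc finger factor known as an early target of TGF-beta, had 242, 232, 160 and 170 CPM in HSA/d1, 149, 154, 91.8 and 132 CPM in HSA/d5 and 62.3, 44.7, 57.5 and 68.7 CPM with fetuin-A. It had 86.8 to 113 CPM with SB431542, a log2 ratio of -0.45 that lay inside the limit, and its Fet-A/d5 libraries stayed below these. PDK4, the kinase that switches off pyruvate dehydrogenase, had means of 46.2% of HSA/d5 and 46.0% of HSA/d1, and ARRDC4, an arrestin related to TXNIP, had means of 46.3% and 36.6%. PDK4 and ARRDC4 were outside the rule for naming genes.

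With 0.5 CPM added to each mean, SLC2A2, the gene of the glucose transporter GLUT2, had the lowest ratio to HSA/d1 of the 95 genes, -3.08. Its values were 73.4, 51.6, 23.0 and 30.1 CPM in HSA/d1, 45.4, 48.9, 12.9 and 29.2 CPM in HSA/d5 and 11.4, 2.56, 3.003 and 2.38 CPM with fetuin-A. Replicate 1 held the Fet-A/d5 value of 11.4 CPM, the other 3 libraries lay near each other, and the lowest HSA/d5 library had 12.9 CPM. SSTR1, an inhibitory receptor for somatostatin, had 20.1, 12.8, 16.1 and 14.2 CPM in HSA/d1, 13.1, 9.28, 8.26 and 6.02 CPM in HSA/d5 and 1.93, 1.53, 3.70 and 1.01 CPM with fetuin-A. The other receptors were TNFRSF11A (RANK, the receptor for RANK ligand), PTGER4 (a prostaglandin E2 receptor), COLEC12 (a scavenger receptor) and the amino acid transporter SLC43A2. Their Fet-A/d5 means were 25.9%, 42.5%, 19.6% and 34.4% of HSA/d5, and 21.7%, 33.0%, 36.9% and 46.2% of HSA/d1. The 4 were outside the rule for naming genes.

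SLC2A2 and SSTR1 belong to lists of islet genes, chosen with earlier results known, whose other members are given for comparison. Beside them, 6.29% of all genes were called lower than HSA/d5 and 5.01% lower than HSA/d1. For counts called higher with fetuin-A, here and below, no share of all genes is given. Of 24 genes of stimulus-secretion coupling, 15 were called lower with fetuin-A than in HSA/d5. Against HSA/d1, 2 were called lower, SLC2A2 and ADCY3, an adenylate cyclase, and 1 higher, with a median log2 fold change of 0.32. Of 14 islet receptor genes, 9 were called lower than HSA/d5. Against HSA/d1, 3 were called lower, among them SSTR1, and 3 higher, with a median of 0.29. Of 10 genes of beta cell identity, 4 were called lower than HSA/d5, among them NEUROD1 and PAX6. Against HSA/d1, 0 were called lower and 1 higher, and the group median was 0.25. From HSA/d1 to HSA/d5, 17 of the 24 and 10 of the 14 genes were called higher, where 6.7% of all genes were. SLC2A2 and SSTR1 were not, with log2 fold changes of -0.48 ± 0.45 (SE, adjusted p = 0.417) and -0.86 ± 0.30 (adjusted p = 0.027) by edgeR's quasi-likelihood test, and SSTR1 thus lay under the fold change limit.

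Of the 3 secreted and matrix genes, HTRA3, a secreted serine protease, had 77.6, 84.4, 80.6 and 76.9 CPM in HSA/d1, 109, 88.0, 27.0 and 75.4 CPM in HSA/d5 and 15.2, 10.4, 18.9 and 18.98 CPM with fetuin-A. COL14A1, a collagen that binds to fibril surfaces, had 79.1 to 119 CPM in HSA/d1, 46.6 to 104 CPM in HSA/d5 and 29.6 to 38.9 CPM with fetuin-A. BMP1, the protease that trims procollagens, had 141 to 153 CPM in HSA/d1, 77.0 to 162 CPM in HSA/d5 and 37.1 to 62.2 CPM with fetuin-A. In HSA/d5 the lowest value of all 3 genes was that of replicate 3. Of 46 extracellular matrix genes tested, 22 were called lower with fetuin-A than in HSA/d5 (6.29% of all genes) and 3 higher. Against HSA/d1, 19 were called lower (5.01% of all genes) and 4 higher. Of 41 genes of TGF-beta and BMP signalling, 1 was called lower and 2 higher than in HSA/d5, where 6.29% of all genes were called lower, and 4 were called lower and 2 higher than in HSA/d1, where 5.01% were called lower.

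Most markers of stellate cells, pericytes and fibroblasts were also lower with fetuin-A. From HSA/d1 to HSA/d5 the median log2 fold change of these markers was -0.46, beside 0.68 for the 95 genes. Of 13 such markers, 10 were called lower with fetuin-A than in HSA/d5 (6.29% of all genes), among them COL1A1, COL3A1 and PDGFRB. Against HSA/d1, 10 were called lower (5.01% of all genes). Their summed level was 6254 to 10245 CPM in HSA/d1 and 1412 to 2742 CPM in Fet-A/d5. In HSA/d5 it was 7468, 8093 and 8706 CPM in 3 libraries and 2087 CPM in replicate 3. All 13 had reads, and TAGLN had means under 1 CPM in HSA/d1, HSA/d5 and Fet-A/d5. The part of these markers in the levels of the 95 genes was not tested. In HSA + SB/d5 the same sum was 2821 to 5485 CPM. Its markers did not all move alike from HSA/d5 to HSA + SB/d5. Means of PDGFRB rose from 243 to 391 CPM and of RGS5 from 104 to 126 CPM. All other markers had lower means, among them COL1A1 (1242 to 557 CPM) and COL3A1 (1660 to 839 CPM). The cell division genes stood at 590 to 812 CPM in HSA + SB/d5, a level that the rule itself held near that of HSA/d5. Duct markers stood at 8294 to 10203 CPM in Fet-A/d5 and 5421 to 8931 CPM in HSA/d5, and the 7 genes had log2 fold changes from -0.34 to 0.87. Of the other lists, 1 of 12 endothelial, 2 of 12 macrophage and leukocyte, 3 of 6 acinar and 1 of 7 Schwann cell markers were called lower than in HSA/d5. Among genes of other islet hormones, a list that includes GCG and SST, all 5 tested were called lower. For all genes this share was 6.29%. The endothelial marker EGFL7 and the acinar marker CTRL had no read. Acinar sums were 4002 to 15118 CPM in HSA/d1, 671 to 6721 CPM in HSA/d5 and 84.2 to 1287 CPM in Fet-A/d5. Sums of other islet hormones were 3528 to 5461 CPM in HSA/d1, 18538 to 28997 CPM in HSA/d5 and 1583 to 10300 CPM in Fet-A/d5. Against HSA/d1, 0 of these hormone genes were called lower (5.01% of all genes). In RNA from whole clusters, fewer cells of a type and less RNA per cell cannot be told apart.

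**Figure D4:**
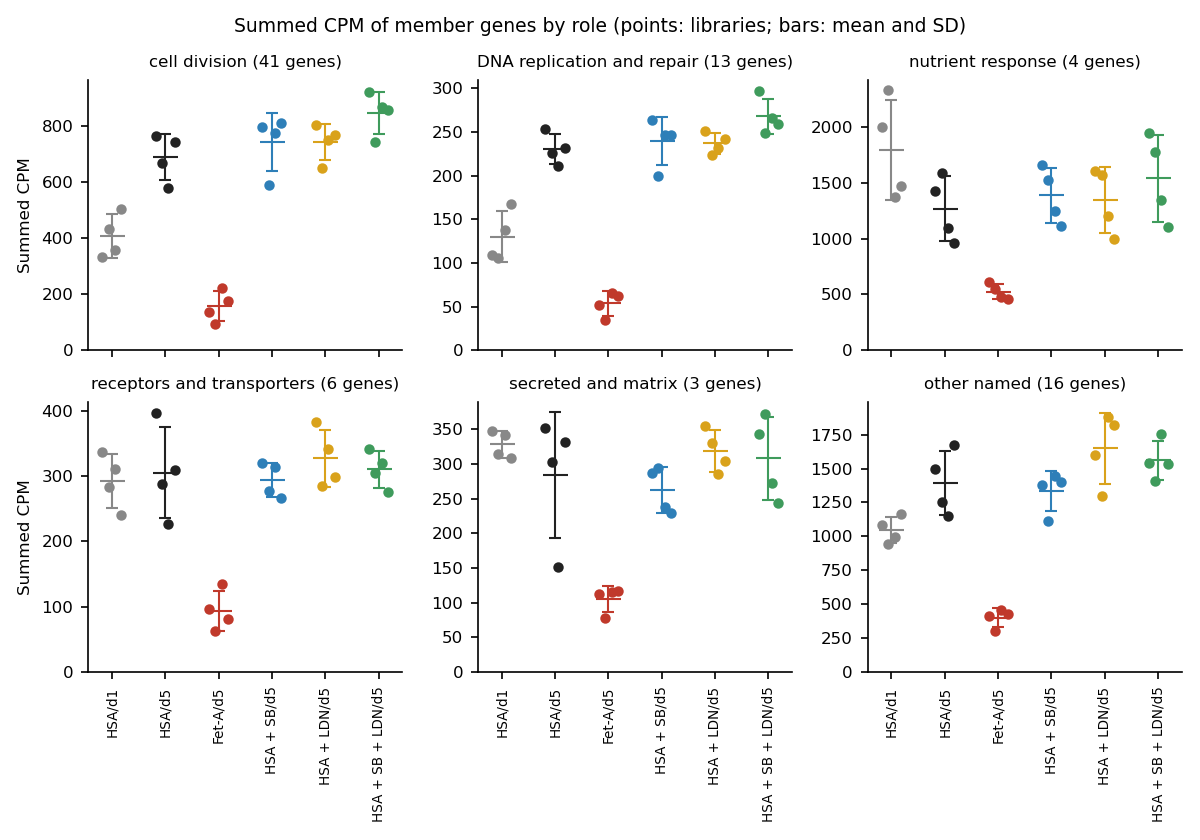
Summed CPM (linear axis from 0) of the genes of 6 roles in each library, with points for the 4 libraries and bars for mean and SD. For cell division, HSA/d1 (332 to 506 CPM) lies between Fet-A/d5 (94.2 to 222 CPM) and HSA/d5 (581 to 766 CPM); for nutrient response, HSA/d1 (1375 to 2330 CPM) overlaps with HSA/d5 (960 to 1591 CPM).

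The 4 Fet-A/d5 libraries were not alike. Replicate 2 held the lowest value for 73 of the 95 genes and for 38 of the 41 cell division genes, and replicate 3 the highest value for 61 and for 34. The cell division sum was also lowest in replicate 2 in HSA + SB/d5, HSA + LDN/d5 and HSA + SB + LDN/d5. It was lowest in replicate 3 in HSA/d5 and in replicate 1 in HSA/d1. Relative to the HSA/d5 mean, the median cell division gene stood at 17.1%, 9.96%, 31.2% and 22.6% in replicates 1 to 4. The 4 nutrient genes did not share this order, with medians of 53.4%, 39.7%, 40.2% and 42.0%. In the same libraries the summed beta cell identity genes, which include INS, had 676, 515, 2473 and 1361 CPM, the stellate cell markers 1950, 1412, 1440 and 2742 CPM, and the duct markers 9128, 10203, 8294 and 8532 CPM. Acinar markers had 1287, 555, 578 and 84.2 CPM. The summed genes of other islet hormones had 2469, 1583, 10300 and 4897 CPM. This sum and the beta cell sum were lowest in replicate 2 and highest in replicate 3. The stellate cell, duct and acinar sums had other orders. The beta cell sum was also lowest in replicate 2 in the other 4 groups at d5, and it was highest in replicate 4 in every group but Fet-A/d5. Replicate numbers only name libraries, and whether libraries of the same number share a source was not tested. The part of these markers in the order of the libraries was not tested.

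The change from HSA/d1 to HSA/d5 was not part of the rule, although its libraries were. Most cell division genes were higher at the end of maturation in albumin than at its start. By edgeR, 11 of the 95 genes were called higher in HSA/d5, where 6.7% of all genes were, and 1 was called lower, where 2.22% were. The 11 were CDK1, KNTC1, HMMR, PBK, ESPL1, UBE2C and HJURP of cell division, PCLAF, ASF1B and PSMC3IP of replication and repair, and TCF19. Without HSA/d1 replicate 4 there were 26 and without HSA/d5 replicate 3 there were 20, and glmTreat, which asks whether the fold change itself exceeds the limit, left 0. With the limit on the fold change left out, 53 of the 95 passed as higher (18.9% of all genes) and 6 as lower (18.7%). The 53 comprised 34 of 41 cell division and 10 of 13 replication genes, with median log2 fold changes over each whole group of 0.79 and 0.70, beside -0.01 for all genes tested.

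PCLAF had the highest value, a log2 fold change of 1.53 ± 0.23 (SE, adjusted p = 5.25e-05, edgeR), and CDK1 had 1.22 ± 0.22 (adjusted p = 0.000352, edgeR). In 47 of the 95 genes the lowest HSA/d5 library exceeded the highest HSA/d1 library, where 19.4% of the 13860 genes showed this. In KLF10 and in RFLNB, which encodes a filamin-binding protein, the groups were separate in the other direction, where 10.9% were. The 4 nutrient genes had a median of -0.54, and 2 of them had an adjusted p below 0.05, TXNIP with -0.66 ± 0.26 (adjusted p = 0.0499, edgeR) and KLF10 with -0.69 ± 0.19 (adjusted p = 0.00634, edgeR). The gene called lower was PKNOX2, a homeodomain factor, with -1.22 ± 0.31 (adjusted p = 0.00474, edgeR); without HSA/d1 replicate 1 it was not called, and without HSA/d5 replicate 1 there were 2 such genes. PKNOX2 had 61.4, 44.9, 34.5 and 25.5 CPM in HSA/d1, 30.04, 19.8, 14.0 and 12.04 CPM in HSA/d5 and 10.7, 7.11, 7.01 and 6.12 CPM with fetuin-A. PKNOX2 and RFLNB were outside the rule for naming genes.

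**Figure D5:**
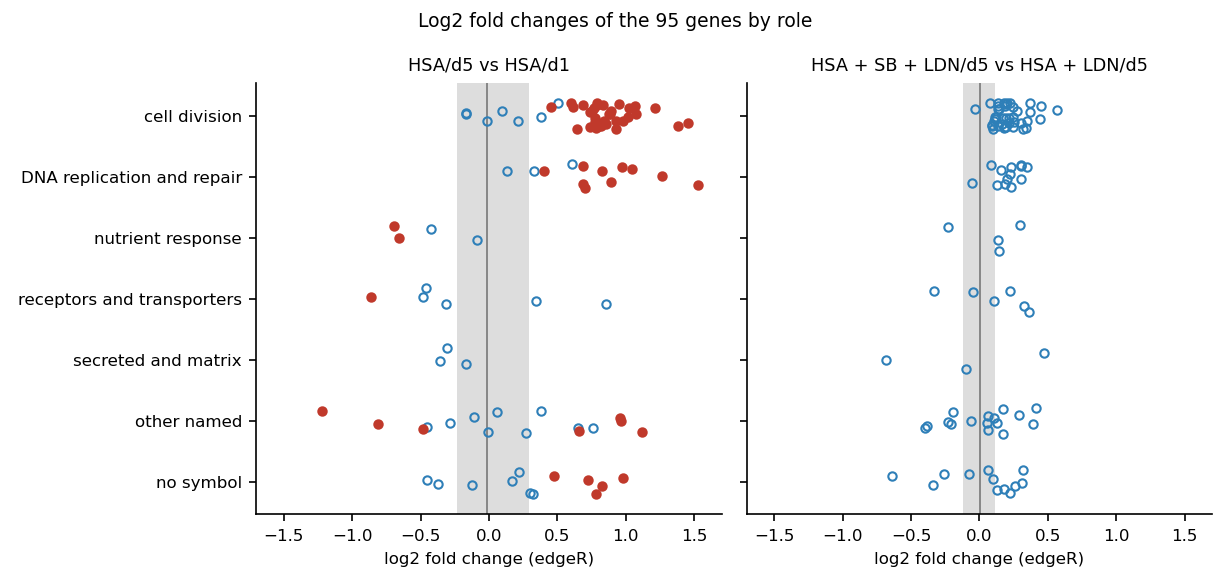
Log2 fold change (edgeR) of each of the 95 genes by role in HSA/d5 against HSA/d1 (left) and HSA + SB + LDN/d5 against HSA + LDN/d5 (right); filled points have an adjusted p below 0.05, the grey band spans the middle quartiles of all 14842 genes and the grey line is their median. On the left 34 of 41 cell division genes are filled and to the right of 0; on the right no gene is filled.

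The libraries with LDN took no part in the choice of the genes beyond the minimum level. All 95 genes had every Fet-A/d5 library below every HSA + LDN/d5 library, where 20.7% of the 13860 genes did, and 94 had every one below HSA + SB + LDN/d5 (20.1% of genes). The exception was ENSSSCG00000033321. By edgeR, 94 of the 95 genes were called lower in Fet-A/d5 than in HSA + LDN/d5, where 7.23% of all genes were, and CSAD, an enzyme of taurine synthesis, had a log2 fold change of -0.93. The Fet-A/d5 libraries of this comparison are those that chose the genes, so the low side of it is not independent. Of the 14842 genes tested, 0 were called in HSA + LDN/d5 against HSA/d5, so the comparison is close to one that chose the genes. These counts and the values that follow are therefore a description. CDK1 had 27.0, 28.5, 29.3 and 32.1 CPM in HSA + LDN/d5, a log2 fold change of -2.65 ± 0.24 for Fet-A/d5 against it (SE, edgeR). SLC2A2 had 48.8, 46.0, 28.2 and 29.97 CPM and a log2 fold change of -2.90 ± 0.50, and TXNIP had 1112, 1115, 825 and 607 CPM and -1.37 ± 0.26.

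The higher level than at the start was also seen in these libraries. The HSA + LDN/d5 libraries were all higher than the HSA/d1 libraries for 57 of the 95 genes (22.8% of all genes), among them 33 of 41 cell division genes. For HSA + SB + LDN/d5 this held for 63 genes (18.4% of all genes) and for 39 of the 41. These comparisons share the HSA/d1 libraries with each other and with the rule. Summed over the 41 genes, the level was 652 to 804 CPM in HSA + LDN/d5 and 743 to 923 CPM in HSA + SB + LDN/d5.

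Whether SB431542 changes these genes can be examined in the presence of LDN, in libraries that did not choose them for it. In HSA + SB + LDN/d5 against HSA + LDN/d5, edgeR called 0 of the 95 genes in either direction, where 0.586% of all genes were called lower and 0.243% higher; DESeq2's Wald test also called 0. At an unadjusted p below 0.05 there were 6, where 13.7% of all genes were. The rule had kept genes with a small ratio of SB431542 to albumin, so a low count may follow in part from that choice. The lowest adjusted p was 0.221, for FAM83D, a spindle protein outside the rule for naming genes, with a log2 fold change of 0.56 ± 0.22. The median log2 fold change of the 95 was 0.17, beside 0.00 for all genes, and 78 lay above 0, 40 of them among the 41 cell division genes, whose median was 0.19. CDK1 had 32.5, 26.5, 32.4 and 34.2 CPM in HSA + SB + LDN/d5 and a log2 fold change of 0.12 ± 0.22 (adjusted p = 0.871, edgeR). No single gene thus passed the test, which does not show that the levels were the same. For 6 genes (HMMR, PBK, DIAPH3, ORC1, MELK and FAM83D) all 4 libraries with SB431542 lay above all 4 without, where 4.49% of genes did, and for XKR5, a membrane protein, all 4 lay below (5.8% of genes).

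HTRA3 and COL14A1 of the secreted genes had values of opposite sign, and neither passed the test. HTRA3 had 51.3, 82.0, 42.8 and 40.6 CPM in HSA + SB + LDN/d5 and 99.9, 104, 80.2 and 68.3 CPM in HSA + LDN/d5, a log2 fold change of -0.68 ± 0.32 (adjusted p = 0.353, edgeR). COL14A1 had 141, 155, 113 and 93.1 CPM and 105, 94.2, 76.9 and 91.7 CPM, a log2 fold change of 0.47 ± 0.21 (adjusted p = 0.325, edgeR).

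LDN itself gave 0 called genes among the 95 and among all 14842 genes (0%) when HSA + LDN/d5 was set against HSA/d5 with edgeR, and DESeq2's Wald test called 0 of the 95. At an unadjusted p below 0.05 there was 1 of the 95, where 1.21% of all genes were, and the median log2 fold change was 0.10. MEST had 239, 249, 320 and 275 CPM with LDN and 220, 215, 176 and 238 CPM without. Its 4 libraries with LDN lay above the 4 without, as did those of RMI2 and FAM83D, where 0.592% of genes did so. The interaction of SB431542 and LDN was called for 0 of the 95 genes by edgeR (0% of all genes) and by DESeq2, with 0 at an unadjusted p below 0.05, where 1.17% of all genes were. The interaction includes the HSA/d5 and HSA + SB/d5 libraries, whose ratio the rule limited.

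Of the 12 genes without a symbol, ENSSSCG00000031741 had the highest level, with 30.4 to 42.1 CPM in HSA/d5 and 4.63 to 8.71 CPM in Fet-A/d5. ENSSSCG00000033049 and ENSSSCG00000038032 had the lowest ratios to HSA/d1 of the 12, -1.95 and -1.93. These 3 were picked after their values were seen. In the RefSeq gene table for assembly Sscrofa11.1, 81 of the 83 named genes were found by symbol, and 2 pairs had at most 5 protein-coding steps between them, MTBP with COL14A1 and CSAD with ESPL1. The other members had no other member as close.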

How the data were processed

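RNA of 24 NICC libraries was sequenced with a strand-specific, poly-A-selected protocol. The authors deposited unnormalised read counts of each gene in 1 table, 1 column per library, also for the 6 libraries listed with 2 runs. The submitters' processing notes name FastQC 0.11.8, Trim Galore 0.5, STAR 2.6.1, Picard, featureCounts 1.6.2 and DESeq2 1.22.1; the genome build, the annotation and the strand setting of the counting are not given in the sources used here. Groups followed the sample labels, and replicate numbers only name libraries. Symbols were paired for 14857 of 25880 identifiers.

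CPM was the count over the total of its library, times 1000000. Tests used edgeR 4.0.16 (filterByExpr, TMM, glmQLFit, glmQLFTest; R 4.3.3), 1 coefficient per group over all 24 libraries, with Benjamini-Hochberg adjustment over 14842 genes. The procedure was also run on simulated counts. These were drawn independently for each library, so that run does not bear on sources that libraries may share. Within groups, counts differed by a chi-square per degree of freedom of 15.1 to 87.8, so no library was a repeat of another in its group. The p-values measure the spread between these libraries, taken as unpaired. Other settings used DESeq2 1.42.0, sva 3.50.0, other filters and normalisations, and each library left out.

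The 95 genes, the gene lists and the roles were chosen with earlier results of these data known. Named were up to 30 genes in a list by mean CPM over HSA/d1 and HSA/d5, the 10 lowest Fet-A/HSA ratios with at least 5 CPM in HSA/d5, the 5 highest mean levels, genes called in HSA + SB + LDN/d5 against HSA + LDN/d5 (none), and those at the limits of the rule. Genes named as members of a role and genes described as outside this rule were chosen after their values were seen.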

Additional observations from a re-analysis of the deposited data

Results flagged for a closer look

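In 17 of 312 sets of 4 libraries (44 named genes of the 95 and the sums by role, in each of 6 groups), 1 library stood apart from the other 3 by a gap past the 95% critical value of Dixon for 4 values, which chance passes in about 1 of 20 sets. With fetuin-A, SLC2A2 was high in replicate 1 (11.4 CPM, others 2.38 to 3.003). Replicate 2 with fetuin-A was low for HMGN2 (106 CPM, others 163 to 167), for PBK (1.44 CPM, others 3.59 to 3.95) and for the sum of the secreted and matrix genes (77.1 CPM, others 113 to 117). In HSA + SB/d5, replicate 2 was low for the sum of the cell division genes (590 CPM, others 774 to 812), HMGN2 (398 CPM), TPX2 (40.9 CPM), TTK (14.2 CPM) and ORC1 (8.19 CPM).

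In HSA + SB + LDN/d5, replicate 1 was high for MCM2 (81.1 CPM) and CDCA8 (19.6 CPM), and replicate 2 was low for KIF20A (20.2 CPM) and DLGAP5 (16.4 CPM). In HSA + LDN/d5, replicate 1 was high for KIF2C (24.5 CPM) and FOXM1 (11.96 CPM), and replicate 2 was low for TCF19 (12.3 CPM). In HSA/d1, replicate 4 was high for XPNPEP2 (0.915 CPM). The causes were not tested.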

How the results depend on the processing

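The rule gave 96 genes (92 of them shared with the 95) with CPM per TMM effective library size, 118 with 0.1 CPM and 50 with 2 CPM added to each mean, 90 with a minimum of 5 CPM, and 95 (82 shared) with group medians. With each of 16 libraries left out it gave 76 to 151 genes. The numbers called lower with fetuin-A stayed at 90 to 95 against HSA/d5, 88 to 95 against HSA/d1 and 94 to 95 against HSA + LDN/d5 when libraries were left out, and glmTreat left 24 against HSA/d1, as it requires the fold change itself to exceed the limit. From HSA/d1 to HSA/d5, 8 to 26 genes were called higher and 0 to 2 lower without single libraries, 0 and 0 with glmTreat, and 2 lower with 3 surrogate variables. In the comparisons of SB431542 and LDN, 0 genes were called under all 8 settings and without any single library. Of the named genes called, no log2 fold change changed its sign under any setting. No paired analysis was run, because the labels assign no library to an islet preparation and the replicate numbers follow the order of listing. Acinar sums were highest in replicate 1 and lowest in replicate 4 in all 6 groups, and Schwann cell sums were highest in replicate 4 in all 6, so libraries of the same number may share a source. This was not tested, and the p-values take no account of it. A shared source could hide differences between groups, so the 0 calls for SB431542 and LDN do not show equal levels. The median total of 20924473 counts limits genes near 1 CPM, such as XPNPEP2 and PIF1, to few reads in Fet-A/d5. The causes of these shifts were not tested.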
